A study of Homo sapiens with 6 samples.

Results

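The histone lysine demethylases described here are 10 genes chosen by name from the 53712 gene names of the count table: KDM1A, KDM1B, KDM3A, KDM4A, KDM4B, KDM4C, KDM5A, KDM5B, KDM6A and KDM6B. All 10 were present and all passed the low-count filter. The pair that acts on lysine 27 of histone H3 (H3K27), KDM6A and KDM6B, was set against the other 8. The cells were H9, a widely used human embryonic stem line kept in RSeT, which is sold for the culture of naive-type cells. One group received UNC1999, an inhibitor of the H3K27 methyltransferases EZH2 and EZH1, and the other received UNC2400, an N-methylated analog of low activity, each at 2.5 µM for 48 h with 3 libraries per compound. Both groups also received 10 nM DZNep, which blocks the hydrolase that clears S-adenosylhomocysteine, together with the histone deacetylase inhibitor TSA at 5 nM, so every difference is between compounds on that shared background. No group without DZNep and TSA was analysed here, and all libraries come from a single cell line.

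Histone demethylases remove methyl groups from lysines of the histone tails. KDM1A and KDM1B use a flavin cofactor, whereas the other 8 are JmjC-domain oxygenases that need iron, oxygen and 2-oxoglutarate. The KDM1 and KDM5 enzymes act on H3K4, KDM3A on H3K9, the KDM4 enzymes on H3K9 and H3K36, and the KDM6 enzymes on H3K27, where they oppose Polycomb repressive complex 2, the target of UNC1999. In pluripotent cells, KDM1A restrains enhancers of differentiation genes and KDM6A works with the H3K4 methyltransferases KMT2C and KMT2D at enhancers.

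The promoters of 4 members are shown because these genes gave the most contrasting results before the adjustment for gene properties described below. There the H3K27 pair moved in opposite directions, and KDM4B and KDM4C fell by the largest factors among the 10. With that adjustment the direction of KDM6A was not kept. Each window runs from 250 bases before to 50 after the RefSeq gene start (GRCh38.p14, plus strand for all 4). They lie at chrX:44872938-44873237 (KDM6A), chr17:7833967-7834266 (KDM6B), chr19:4968863-4969162 (KDM4B) and chr9:6757723-6758022 (KDM4C). Capitals mark ACGTG on either strand, a form of the core of the hypoxia response element, since KDM4B and KDM4C are known as hypoxia-induced genes. The other form of that core, GCGTG, was not searched, so a window without ACGTG may still hold the core.
KDM6A: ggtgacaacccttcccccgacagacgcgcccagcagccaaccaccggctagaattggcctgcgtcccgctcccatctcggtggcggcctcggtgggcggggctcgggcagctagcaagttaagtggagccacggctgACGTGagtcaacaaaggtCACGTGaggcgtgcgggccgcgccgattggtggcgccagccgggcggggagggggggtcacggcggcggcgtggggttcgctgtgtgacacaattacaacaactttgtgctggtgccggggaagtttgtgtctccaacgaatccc
KDM6B: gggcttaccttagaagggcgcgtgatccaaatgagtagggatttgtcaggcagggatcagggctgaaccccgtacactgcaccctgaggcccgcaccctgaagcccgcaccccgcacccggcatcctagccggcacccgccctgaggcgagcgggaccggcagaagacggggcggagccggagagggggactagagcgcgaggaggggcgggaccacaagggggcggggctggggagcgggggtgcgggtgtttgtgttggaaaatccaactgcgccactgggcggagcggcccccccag
KDM4B: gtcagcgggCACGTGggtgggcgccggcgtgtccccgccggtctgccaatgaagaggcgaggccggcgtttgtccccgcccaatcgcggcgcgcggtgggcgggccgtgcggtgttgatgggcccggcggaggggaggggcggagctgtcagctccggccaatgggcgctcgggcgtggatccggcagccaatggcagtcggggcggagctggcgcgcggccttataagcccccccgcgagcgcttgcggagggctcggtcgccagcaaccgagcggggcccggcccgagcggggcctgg
KDM4C: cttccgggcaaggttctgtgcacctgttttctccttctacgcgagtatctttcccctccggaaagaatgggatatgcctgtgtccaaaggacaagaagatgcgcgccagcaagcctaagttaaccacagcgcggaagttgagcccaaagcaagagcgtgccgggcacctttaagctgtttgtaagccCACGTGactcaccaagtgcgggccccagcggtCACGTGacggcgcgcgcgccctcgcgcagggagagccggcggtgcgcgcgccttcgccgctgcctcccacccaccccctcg
ACGTG occurred 4 times in the KDM4C window, 3 times in that of KDM6A and 2 times in that of KDM4B, where CACGTG counts as 2 overlapping matches because it reads the same on both strands. It was not found in the KDM6B window. In all, 4 of the 12 RefSeq windows of the 10 genes held it: these 3 and that of KDM1A, with 1 match. Both windows of KDM3A, also known as hypoxia-induced, held 0. Of all 35116 promoter windows in the table, 21.4% held at least 1 match and 1.98% at least 3. The GC box GGGCGG, searched on both strands, was found 5 times in the KDM6B window, 4 times in that of KDM4B, 2 times in that of KDM6A and not in that of KDM4C. GGGCGG was found in 45.0% of all windows. The 4 windows held 24 to 43 CpG dinucleotides, against a median of 14 over all windows. RefSeq lists a further KDM6B start 5700 bases downstream, whose window held only 2 CpG dinucleotides.

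Among the 10 genes, 2 rose and 7 fell in UNC1999 by edgeR's quasi-likelihood test (Benjamini-Hochberg adjusted p under 0.05 over 17596 tested genes), and 1 did not pass. Over all tested genes, 26.8% rose and 25.9% fell, 52.7% in all. KDM6B rose most, to 1.57 times its UNC2400 level, and KDM4C fell most, to 0.536 times. The groups did not overlap for 9 of the 10 genes, which is also the case for 60.6% of all tested genes (30.9% with UNC1999 above and 29.7% with it below). The median log2 fold change (UNC1999 minus UNC2400) was -0.30 over the 10 genes and 0.02 over all tested genes. The median absolute log2 fold change was 0.31 for the 10 genes and 0.28 for all tested genes, so the changes were of about ordinary size for these libraries. Levels are given as CPM, the count of a gene scaled to its library's total and adjusted with TMM factors, and in bulk RNA fewer cells of a type and less RNA per cell cannot be told apart.

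**Figure D1:**
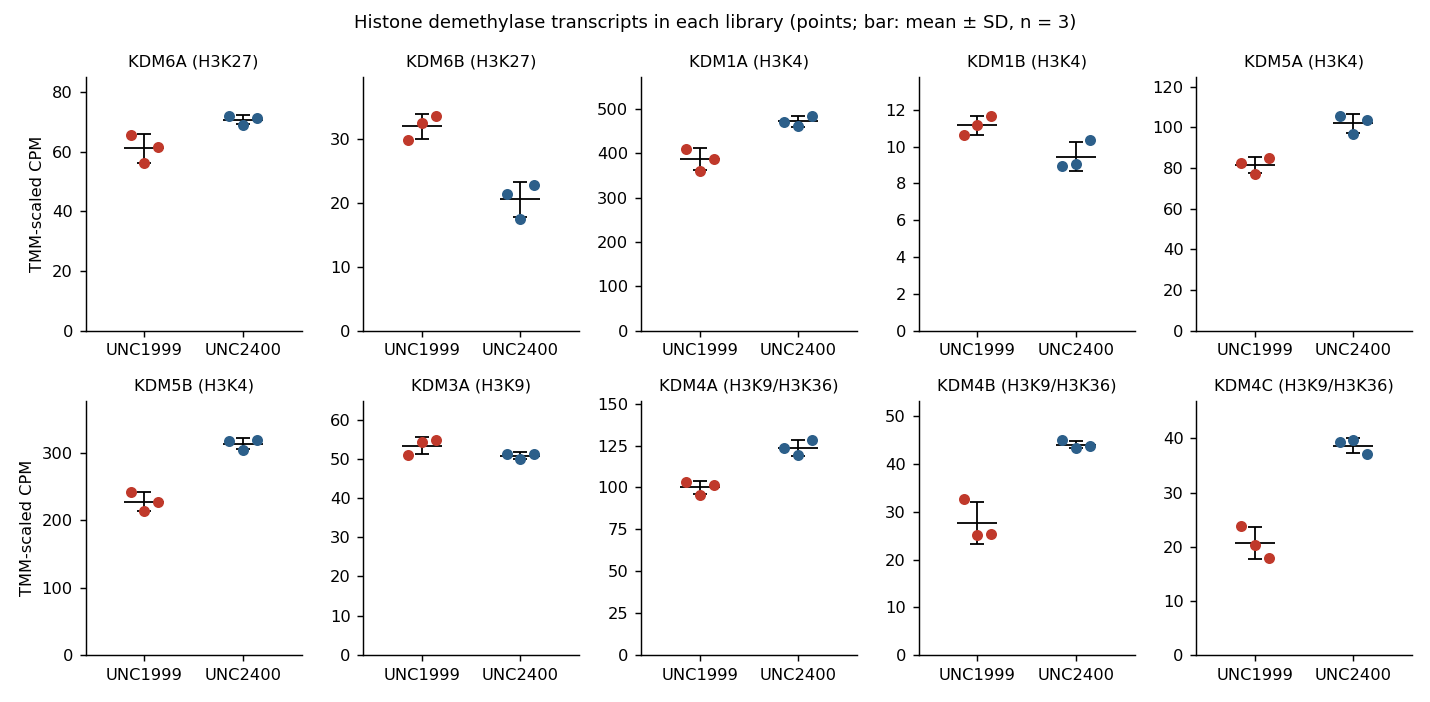
Each panel plots TMM-scaled CPM (linear axis from 0) of 1 demethylase gene in the 3 UNC1999 (left) and 3 UNC2400 (right) libraries, with bars at mean ± SD. KDM6B and KDM1B were higher in every UNC1999 library, KDM3A overlapped between the groups, and the other 7 genes were lower in every UNC1999 library.

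The H3K27 demethylases moved apart. KDM6B (JMJD3), known as the inducible member of the pair, had 29.9, 32.6 and 33.7 CPM in UNC1999 replicates 1 to 3, against 21.4, 17.5 and 22.8 CPM in UNC2400 replicates 1 to 3. The lowest UNC1999 library lay above the highest UNC2400 library. Its mean was 32.1 ± 1.97 CPM in UNC1999 and 20.6 ± 2.73 CPM in UNC2400 (SD, n = 3 each), which is a log2 difference of 0.65 ± 0.08 (SE; edgeR adjusted p = 8.13e-06). KDM6A (UTX), an X-linked subunit of the KMT2C and KMT2D complexes, had 65.6, 56.1 and 61.5 CPM in UNC1999, against 72.0, 68.9 and 71.2 CPM in UNC2400. Every UNC1999 library was below every UNC2400 library, by a narrow margin for replicate 1. The means were 61.1 ± 4.78 CPM in UNC1999 and 70.7 ± 1.6 CPM in UNC2400 (SD, n = 3 each), which is a log2 difference of -0.21 ± 0.06 (SE; edgeR adjusted p = 0.00564).

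Set against the other 8 genes, KDM6B stood above all of them in log2 fold change, while KDM6A lay inside their range. The other 8 ran from -0.90 to 0.24 with a median of -0.31; 6 of them were below KDM6A and 2 above. KDM6B exceeded the median of the other 8 by 0.96 and KDM6A exceeded it by 0.10 on the log2 scale. Of the other 8, 6 fell, 1 rose and 1 did not pass. The 10 genes share libraries and are not replicates, so no test was made over them.

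Per length of the longest coding transcript, KDM6A stayed the more abundant of the pair. The ratio of KDM6B to KDM6A level per kb was 0.402, 0.512 and 0.484 in UNC1999 replicates 1 to 3, against 0.263, 0.224 and 0.283 in UNC2400 replicates 1 to 3. It averaged 0.466 ± 0.0573 in UNC1999 and 0.257 ± 0.0296 in UNC2400 (SD, n = 3 each), with no overlap between the groups.

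The direction of KDM6A depended on an adjustment for gene properties. In these libraries genes of long genomic span were lower in UNC1999: the median log2 fold change of tested genes was 0.20 for spans under 10 kb, -0.08 for 50 to 100 kb and -0.43 from 200 kb up. KDM6A spans 239.4 kb and KDM6B 14.9 kb (GENCODE 29, used as a gene property only). With offsets fitted in each library for span, exon length and GC content, KDM6A stood at 0.07 on the log2 scale (95% interval -0.04 to 0.18; edgeR adjusted p = 0.285), and KDM6B kept 0.64 ± 0.08 (SE). The difference between KDM6B and KDM6A in log2 fold change was then 0.57, and 0.86 without offsets.

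**Figure D2:**
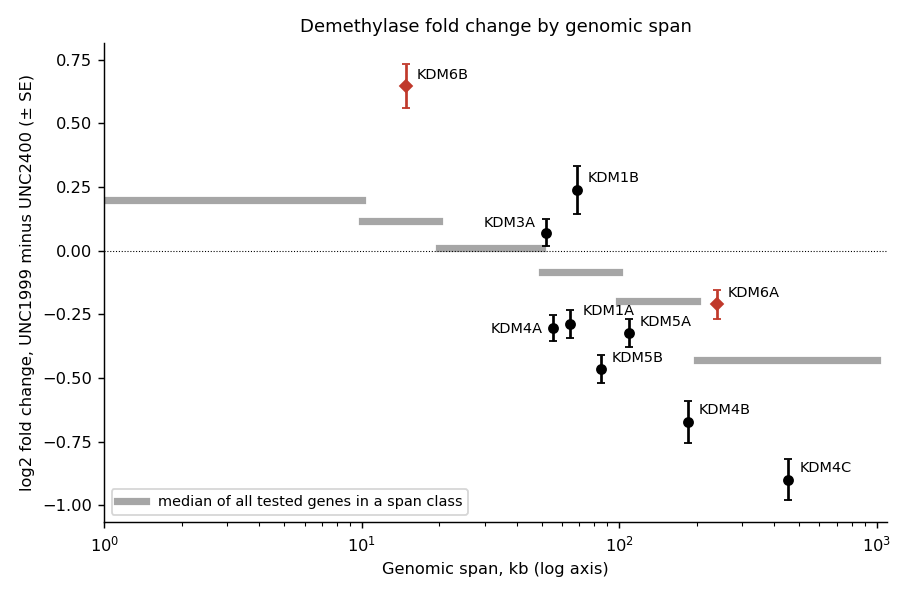
Log2 fold change (UNC1999 minus UNC2400, ± SE) of the 10 genes against genomic span in kb on a log axis, with KDM6A and KDM6B as red diamonds; grey bars are medians of all tested genes in 6 span classes, clipped at the axis limits. KDM6B at 14.9 kb is highest and KDM4C at 454.8 kb is lowest, and the grey medians decline from 0.20 to -0.43.

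Across the 10 genes, Spearman's rho between span and log2 fold change was -0.70, and over the 14812 tested genes with a known span it was -0.39. Both are descriptions over genes that share the same 6 libraries. KDM4C had the longest span (454.8 kb) and the lowest log2 fold change, and KDM6B the shortest span and the highest. KDM6A was above the median of its span class (-0.43), and KDM4C was below it.

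Among the H3K4 demethylases, KDM1A, KDM5A and KDM5B fell and KDM1B rose. KDM5B (PLU-1), known to remove H3K4 trimethylation, had 241.6, 213.2 and 227.0 CPM in UNC1999 and 317.5, 304.3 and 318.7 CPM in UNC2400. The groups were well apart, and its log2 fold change was -0.46 ± 0.06 (SE; edgeR adjusted p = 2.93e-06). KDM5A (RBP2), first known as a retinoblastoma-binding protein, had 82.4, 77.2 and 84.9 CPM in UNC1999 and 105.7, 96.8 and 103.6 CPM in UNC2400. Its log2 fold change was -0.32 ± 0.05 (SE; edgeR adjusted p = 8.87e-05). With the offsets the log2 fold changes were -0.25 for KDM5B and -0.14 for KDM5A (edgeR adjusted p = 0.00274 and 0.04).

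KDM1A (LSD1), the catalytic subunit of the CoREST complex, was the most abundant of the 10 genes. It had 411.0, 361.4 and 388.0 CPM in UNC1999 and 470.0, 461.8 and 485 CPM in UNC2400. All UNC1999 libraries were lower, and its log2 fold change was -0.29 ± 0.06 (SE; edgeR adjusted p = 0.00042). Its paralog KDM1B (LSD2), known in mouse for setting maternal imprints in oocytes, was the least abundant. KDM1B had 10.6, 11.2 and 11.7 CPM in UNC1999 and 8.92, 9.08 and 10.4 CPM in UNC2400, so the lowest UNC1999 and the highest UNC2400 values nearly touched. Its log2 fold change was 0.24 ± 0.09 (SE; edgeR adjusted p = 0.0408). That call is the weakest of the 9: it was lost with DESeq2 (adjusted p = 0.0867), with no low-count filter (edgeR adjusted p = 0.0967), and in 4 of 6 fits that each left out 1 library, namely UNC1999 replicate 2 (adjusted p = 0.0808), UNC1999 replicate 3 (0.153), UNC2400 replicate 1 (0.146) and UNC2400 replicate 2 (0.147).

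Among the demethylases of H3K9 and H3K36, all 3 KDM4 genes fell and KDM3A did not pass the test. KDM4C (GASC1) had 23.9, 20.4 and 18.0 CPM in UNC1999 and 39.3, 39.7 and 37.0 CPM in UNC2400. The gap between the groups was wider than the spread within either, and its log2 fold change was -0.90 ± 0.08 (SE; edgeR adjusted p = 1.68e-07). Of all tested genes, 91.4% had a smaller absolute log2 fold change. KDM4B had 32.7, 25.0 and 25.3 CPM in UNC1999 and 45.0, 43.5 and 43.8 CPM in UNC2400. UNC1999 replicate 1 was nearest to the UNC2400 libraries but still below them, and the log2 fold change was -0.67 ± 0.08 (SE; edgeR adjusted p = 3.9e-06). Both genes have long spans, and with the offsets their log2 fold changes were -0.44 ± 0.07 for KDM4C and -0.24 ± 0.07 for KDM4B (SE; edgeR adjusted p = 2.27e-05 and 0.00615).

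KDM4A, a gene of 55.4 kb, had 103.4, 95.8 and 101.2 CPM in UNC1999 and 123.3, 119.2 and 128.2 CPM in UNC2400. Its log2 fold change of -0.30 ± 0.05 (SE; edgeR adjusted p = 0.000104) was nearly the same with the offsets (-0.29 ± 0.05). KDM3A (JMJD1A), known to be induced by hypoxia and to remove mono- and dimethylation of H3K9, had 50.9, 54.4 and 54.8 CPM in UNC1999 and 51.4, 49.9 and 51.3 CPM in UNC2400. UNC1999 replicate 1 lay within the UNC2400 range. The log2 fold change was 0.07 (95% interval -0.04 to 0.18; edgeR adjusted p = 0.273), and with the offsets it was 0.16 (edgeR adjusted p = 0.0197).

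**Figure D3:**
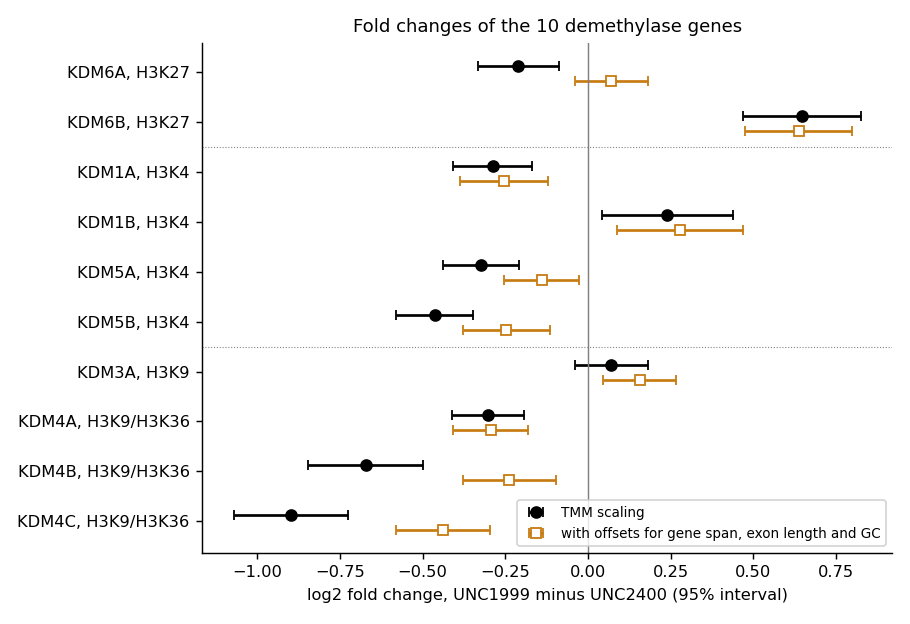
Log2 fold change (UNC1999 minus UNC2400) with its 95% interval for the 10 genes, grouped by substrate with the H3K27 pair on top. Filled circles are the fit with TMM scaling and open squares the fit with offsets for GC content, span and exon length. KDM6B stays near 0.65, KDM6A moves across 0, and KDM4B and KDM4C move toward 0 without reaching it.

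Levels per kb of the longest coding transcript (GENCODE 29) put KDM1A first in both groups, at 126.4 ± 8.12 CPM per kb in UNC1999 and 154.4 ± 3.88 in UNC2400 (SD, n = 3 each). KDM4A and KDM5B followed, at 22.4 and 21.98 CPM per kb in UNC1999 and at 27.6 and 30.3 in UNC2400. In UNC1999 these were within their spread, and so were KDM3A and KDM6A (10.8 and 10.3 CPM per kb). KDM4B, KDM6B and KDM4C were also within their spread in UNC1999 (4.85, 4.78 and 4.45 CPM per kb). In UNC2400 KDM6B stood 9th of 10 at 3.07 ± 0.407 CPM per kb, followed by KDM1B at 2.48 ± 0.209 (SD, n = 3 each). Their ranges of mean ± SD overlapped, though neither mean lay in the range of the other. KDM4C and KDM4B had 8.31 and 7.74 CPM per kb in UNC2400. The order depends on the length used: by joined exons of all transcripts KDM3A stood 7th in UNC1999, not 4th.

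In the authors' deposited table of log2 fold changes and adjusted p-values, the same 9 genes were under 0.05 in the same directions. KDM6B stood at 0.65 and KDM6A at -0.23, with adjusted p of 6.06e-07 and 0.00401 in the authors' deposited table. KDM1B was nearest the threshold there, at an adjusted p of 0.0496. In the authors' deposited log2 values, which are normalized and batch-corrected, KDM6B was 4.91, 5.10 and 4.96 in UNC1999 replicates 1 to 3 and 4.46, 4.25 and 4.40 in UNC2400 replicates 1 to 3.

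Some members share genomic sequence with other genes, and the strand setting of the counting is not given. KDM5A shares 182 bases of exon with CCDC77 on the opposite strand, which had 33.7 ± 0.973 CPM in UNC1999 and 30.5 ± 0.48 CPM in UNC2400 (SD, n = 3 each). KDM4A shares 464 bases with KDM4A-AS1, which was near 1 CPM in all libraries (0.946 ± 0.0938 CPM in UNC1999 and 0.756 ± 0.0119 in UNC2400; SD, n = 3 each). Values of KDM5A and KDM4A are uncertain to that extent. KDM5B-AS1 averaged 1.15 CPM in UNC1999 and 1.07 CPM in UNC2400.

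Of 12 further histone demethylase genes, 11 were tested, with a median log2 fold change of -0.08. Of these 5 fell (45.5%), 1 rose (9.09%) and 5 did not pass, while 25.9% of all tested genes fell and 26.8% rose. PHF8, an X-linked demethylase of H3K9 and H4K20, fell by 0.55 ± 0.06, and the KDM3 relative JMJD1C by 0.41 ± 0.05 (log2, SE). The H3K36 demethylase gene KDM2B, also a subunit of a variant Polycomb repressive complex 1, fell by 0.25 ± 0.05, and KDM3B by 0.24 ± 0.06 (log2, SE). With the offsets PHF8 had a log2 fold change of -0.36. JMJD1C and KDM2B then had 0.02 and 0.10, and neither they nor KDM3B passed. KDM4D, a KDM4 relative, rose from a low level, with 7.53 ± 1.52 CPM in UNC1999 and 4.63 ± 0.526 CPM in UNC2400 (SD, n = 3 each), which is a log2 difference of 0.70 ± 0.15 (SE; edgeR adjusted p = 0.000658). HR was under 1 CPM, with 8, 3 and 5 counts in UNC1999 and 13, 19 and 18 counts in UNC2400, and a log2 fold change of -1.67 ± 0.43 (SE). KDM2A, KDM5C, PHF2, KDM7A (listed as JHDM1D) and KDM8 had log2 fold changes of -0.08, -0.06, 0.03, -0.01 and 0.09 and did not pass. With the offsets KDM2A had 0.15 and PHF2 0.21, both passed, and 3 of the 11 were higher and 2 lower. KDM4E had no more than 1 count in any library and was not tested.

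Of 13 CoREST-type partners of KDM1A, 7 fell (53.8%, against 25.9% of all tested genes) and 6 did not pass, with a median of -0.13. The zinc finger gene ZMYM2 fell by 0.39 ± 0.05, the corepressor gene RCOR3 by 0.31 ± 0.07 and the DNA-bending protein gene HMG20B by 0.27 ± 0.05 (log2, SE). With the offsets ZMYM2 had a log2 fold change of -0.15 (edgeR adjusted p = 0.0363), and 5 of the 13 were lower and 1 higher. Of 7 SIN3-type partners of KDM5A, 4 fell (57.1%, against the same 25.9%) and 3 did not pass, with a median of -0.15. SUDS3 fell by 0.66 ± 0.06, EMSY (listed as C11orf30) by 0.51 ± 0.06 and the scaffold gene SIN3B by 0.47 ± 0.06 (log2, SE). With the offsets SIN3B had -0.31, and EMSY, with no span under its listed name, was not adjusted.

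Of 9 genes of the complex that holds KDM6A, 2 rose (22.2%), 2 fell (22.2%) and 5 did not pass, with a median of 0.01. These shares were near the 26.8% of all tested genes that rose and the 25.9% that fell. KMT2C (listed as MLL3) had 62.0 ± 1.17 CPM in UNC1999 and 91.8 ± 9.78 CPM in UNC2400 (SD, n = 3 each), which is a log2 difference of -0.56 ± 0.07 (SE; edgeR adjusted p = 2.23e-06). KMT2D (listed as MLL2) fell by 0.40 ± 0.06, while the core subunit genes ASH2L and RBBP5 rose by 0.29 ± 0.05 and 0.28 ± 0.06 (log2, SE). With the offsets 4 of the 9 were higher; KMT2C and KMT2D had no span under their listed names and were not adjusted.

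In the fit to all libraries without offsets, the methyltransferases that write the same marks fell or did not pass. The share that fell was 33.3% for H3K4 and for H3K9, 50% for H3K27 and 80% for H3K36. Over all tested genes 25.9% fell and 26.8% rose. For H3K27, 2 of 4 core genes fell. EZH2 had 102 ± 5.46 CPM in UNC1999 and 128 ± 2.46 CPM in UNC2400 (SD, n = 3 each), which is a log2 difference of -0.33 ± 0.05 (SE; edgeR adjusted p = 5.46e-05). SUZ12 had -0.14 ± 0.05 (SE; edgeR adjusted p = 0.0291), a call lost with the offsets (0.146) and without UNC1999 replicate 3 (0.102), UNC2400 replicate 2 (0.137) or UNC2400 replicate 3 (0.102). EZH1 and EED had log2 fold changes of -0.12 and 0.13 and did not pass; without UNC1999 replicate 1 EED passed (0.18, edgeR adjusted p = 0.0146). For H3K9, 2 of 6 fell: EHMT1 (GLP) by 0.74 ± 0.07 and its partner EHMT2 (G9a) by 0.40 ± 0.06 (log2, SE). EHMT1 had a log2 fold change of -0.29 with the offsets. For H3K36, 4 of 5 fell, among them NSD2 (listed as WHSC1) by 0.53 ± 0.06, NSD3 (listed as WHSC1L1) by 0.34 ± 0.05 and ASH1L by 0.32 ± 0.06 (log2, SE). With the offsets ASH1L had a log2 fold change of 0.02 and did not pass, and 1 of the 5 was higher and 2 lower. NSD2 and NSD3 had no span under their listed names and were not adjusted. For H3K4, KMT2C and KMT2D were the 2 of 6 that fell, without adjustment by the offsets. KMT2A (listed as MLL) and KMT2B (listed as WBP7) were not adjusted either. With the offsets 2 of the 6 were higher and 2 lower.

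**Figure D4:**
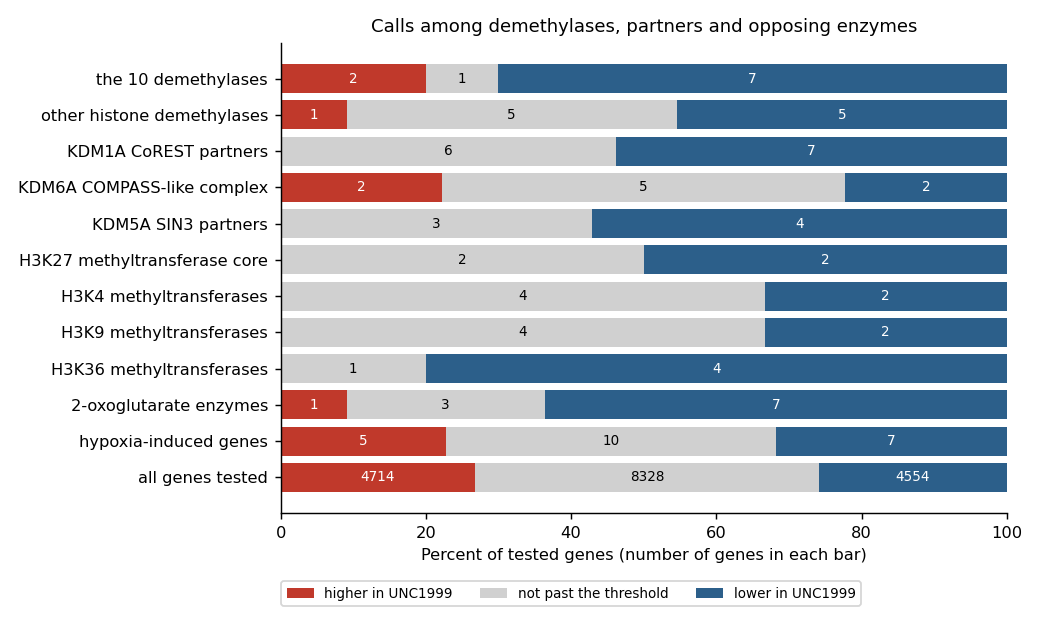
Percent of tested genes in each list that were higher (red, left), not past the threshold (grey) or lower (blue, right) in UNC1999, with the number of genes in each bar; the bottom bar shows all 17596 tested genes. Of the 10 demethylases 2 were higher and 7 lower, and in the complex that holds KDM6A 2 were higher and 2 lower. Over all tested genes 26.8% were higher and 25.9% lower. Cell type marker lists are not plotted.

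JmjC demethylases use 2-oxoglutarate, and genes of enzymes that make it or use it were listed together. Whether these genes bear on the demethylase results was not tested. Of 11 such genes, 7 fell (63.6%), 1 rose (9.09%) and 3 did not pass, with a median of -0.33. Over all tested genes 25.9% fell and 26.8% rose. OGDH, a subunit of the 2-oxoglutarate dehydrogenase, fell by 0.47 ± 0.07, the glutamate dehydrogenase gene GLUD1 by 0.41 ± 0.06 and the isocitrate dehydrogenase subunit gene IDH3A by 0.40 ± 0.06 (log2, SE). With the offsets OGDH had a log2 fold change of -0.29. IDH3B had a log2 fold change of 0.13 ± 0.05 (edgeR adjusted p = 0.0418), a call lost in 9 of 14 alternatives, among them each fit without UNC1999 replicate 1 or 3 or any UNC2400 replicate (adjusted p = 0.119 to 0.212), and its direction turned with the offsets (-0.11).

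KDM3A, KDM4B and KDM4C are known targets of hypoxia-inducible factors. The list of 22 hypoxia-induced genes held KDM3A but not KDM4B and KDM4C, which both fell. Of the 22, 5 rose (22.7%), 7 fell (31.8%) and 10 did not pass, with a median of 0.00. These shares, taken without KDM4B and KDM4C, were near those of all tested genes, of which 26.8% rose and 25.9% fell. Whether hypoxia signaling has a part in the demethylase results was not tested. The peptide hormone gene ADM had 41.5 ± 5.01 CPM in UNC1999 and 10.96 ± 0.822 CPM in UNC2400 (SD, n = 3 each), which is a log2 difference of 1.92 ± 0.09 (SE; edgeR adjusted p = 2.62e-10). The stress-responsive gene NDRG1 rose by 0.89 ± 0.15 and the oxygen sensor gene EGLN1 by 0.74 ± 0.07 (log2, SE). PDK1, a kinase that restrains pyruvate dehydrogenase, fell by 0.65 ± 0.08, the glucose transporter gene SLC2A1 by 0.44 ± 0.07 and PGK1 by 0.34 ± 0.06 (log2, SE); PGK1 did not pass with the offsets (edgeR adjusted p = 0.226).

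Total counts ranged from 33522942 to 34481593 in UNC1999 libraries and from 29699441 to 42345448 in UNC2400 libraries. For a count of 0, 3 counts were taken as an approximate upper bound, which stands for at most 0.101 CPM. UNC1999 replicate 1 lay nearer to the UNC2400 libraries than its fellows on the first principal component, and without it 2 of the 10 genes were still higher and 7 lower. Over all tested genes 26.8% rose and 25.9% fell, and the marker calls stand beside these shares. All 9 pluripotent cell markers were above 1 CPM in every library. Their summed levels were 7462 to 8556 CPM in UNC1999 and 10152 to 10315 CPM in UNC2400. DNMT3B alone averaged 1202 CPM in UNC1999 and 2498 CPM in UNC2400. Of the 9, 5 fell (55.6%), while SOX2, TDGF1, SALL4 and LIN28A did not pass. With the offsets all 9 fell, and 4330 of the 17596 tested genes fell. Of 8 naive-type markers tested, 5 rose (62.5%) and 2 fell (25%). The sum over the naive-type list was 224 to 252 CPM in UNC1999 and 218 to 229 CPM in UNC2400. KHDC1L had no more than 3 counts in any library, and KLF17, with 2 to 21 counts, was too low to test. Of 7 fibroblast or feeder markers tested, 5 fell (71.4%) and 2, PDGFRB and S100A4, rose (28.6%). The defining genes LUM and DCN had no more than 3 counts in any library. Without UNC2400 replicate 1 neither riser passed (edgeR adjusted p = 0.175 for PDGFRB and 0.0653 for S100A4); PDGFRB was also lost without UNC1999 replicate 2 (0.335) or UNC2400 replicate 2 (0.134), and S100A4 without UNC1999 replicate 3 (0.075). The sum over that list, in which COL1A2, THY1 and COL1A1 were highest, was 212 to 225 CPM in UNC1999 and 314 to 343 CPM in UNC2400. The part of these markers in the demethylase results was not tested.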

How the data were processed

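Poly(A)-selected libraries were made with a kit that marks strand from 200 ng of RNA each, per the labels' protocols. The deposited counts are whole numbers per gene name without normalization. The tools named, without roles, per the submitters' processing notes were featureCounts, Subread 1.5.0, TopHat2 2.0.13 and Trim Galore 0.4.0, and the build was hg19. For the annotation, the strand setting and reads that match several places, the sources used here give nothing. A mark on the count table says that duplicates were removed. The authors also deposited log2 values marked as normalized and batch-corrected, and a comparison table holding p-values and scores of the test beside each log2 fold change, per the file headers. The sign of that fold change was checked against the fit to the counts and was the same for 100% of the genes called.

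Counts of all 6 libraries were tested with R 4.3.3 and edgeR 4.0.16 (TMM factors, edgeR's default low-count filter, a design with group only, and the two-sided quasi-likelihood test). Older gene names were matched through RefSeq synonyms. Offsets were natural splines with 4 degrees of freedom for log2 span, log2 joined exon length and GC content, fitted in each library to log2 CPM (prior count 2); 84.2% of tested genes and all 10 demethylases had these properties by name, and genes without them, such as those listed under older names, were not shifted. Alternatives were RLE and upper-quartile scaling, no filter, at least 1 CPM in 3 libraries, DESeq2 1.42.0, limma-voom (limma 3.58.1), a replicate block, these offsets and leaving out each library. Titles give the replicate numbers. Whether replicates were separate cultures is not in the labels, so a p-value reflects only how far these libraries vary, which may be technical. No replicate pair agreed within sampling noise. Total counts did not part the groups (exact two-sided permutation p = 1; the smallest possible is 0.1). Floors cover counting error only. The 10 genes and all lists were chosen with earlier results of these data known. Named were all 10, the tested further demethylases, EZH2, EZH1, EED, SUZ12, and up to 3 genes per direction and list with the smallest p. Markers were named by the same rule, by level, as defining genes, or as not passing or not tested. KMT2A and KMT2B are named only because the offsets did not adjust them.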

Additional observations from a re-analysis of the deposited data

How the results depend on the processing

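Of 14 alternatives, KDM6B, KDM1A, KDM4A, KDM4B, KDM4C, KDM5A and KDM5B kept their direction and call in all, and KDM6A in all but the offsets; KDM1B kept its call in 8, and KDM3A passed with the offsets only. The number of the 10 genes that were lower was 7 throughout, except 6 with the offsets. The number that were higher was 2, but 1 with DESeq2 and 1 with no low-count filter, 3 with the offsets, and 1 to 2 when single libraries were left out; KDM1B made each loss. Under the offsets, KDM6A had a log2 fold change of 0.071, 0.31 above the median of the other 8 (0.10 without offsets), and KDM6B minus KDM6A was 0.57. Also reversed there were ASH1L (0.017), IDH3B (-0.11), JMJD1C (0.017), KDM2A (0.15) and KDM2B (0.10); whether span itself is the cause was not tested. Over the other lists, markers included, 16 genes were higher and 52 lower, 23 and 48 with the offsets, which could not adjust genes without a span. Over all 17596 tested genes 26.8% were higher and 25.9% lower. With the offsets 4159 of all tested genes were higher and 4330 lower. The replicate block gave 2 higher and 7 lower among the 10 genes and changed none of their calls; over all genes it gave 4867 higher and 4695 lower, against 4714 and 4554. Same-numbered libraries deviated together with r of 0.0237, 0.0839 and 0.124, and libraries of unlike number with r from -0.136 to 0.0618. UNC2400 replicate 1 correlated best with UNC1999 replicate 2, and every other library with its own number. The numbers were not taken as pairs because r was low and the labels do not say that a number marks a shared culture. A weak pairing may remain. HR and PDGFRB, both under 1 CPM, had no value with the filter of at least 1 CPM in 3 libraries.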
